A study of Mus musculus with 12 samples.

Results

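Collagens were examined in the hearts of Balb/c mice as a family of 41 genes, chosen by symbol alone: every probe of the deposited array table with a single gene symbol of the form Col, number, a, number. The 41 genes had 53 probes among 36227 in the table, and the brightest probe (highest mean over all arrays) stood for each of the 12 genes that had 2. They were 11 fibrillar collagens, 8 basement membrane collagens, 7 fibril associated collagens, 6 beaded filament (type VI) collagens, 3 short chain network collagens, 4 transmembrane collagens and 2 others (Col7a1 and Col26a1). One gene, Col11a1, had a value on 1 of the 3 vehicle arrays at 24 h and was not tested, which left 40 genes among 35401 tested probes.

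The mice received by gavage either 30 mg/kg body weight of a compound that the labels call DMA, without expanding the name, or the solvent DMSO. Hearts were taken 24 h or 48 h later, which gave 4 groups of 3 arrays: DMSO 24 h, DMA 24 h, DMSO 48 h and DMA 48 h. Strain, gavage and the DMSO vehicle are what the labels give for the control animals, and no age, sex or untreated group is named. Myocardial RNA was copied from its polyA fraction into biotinylated cRNA, hybridised to 1-colour arrays and stained with Cy5-streptavidin. The labels call the 3 arrays of a group biological replicates, yet the design text describes a pool of RNA for the hearts of each group, so p-values measure the spread between these samples, which may be technical.

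Collagens are trimers of chains wound into a triple helix. Types I and III form the load-bearing fibrils between heart muscle cells, type V sets fibril assembly, type IV builds the sheet-like basement membrane around muscle cells and capillaries, and type VI links that membrane to the fibrils. In the heart the fibrillar chains are made mainly by fibroblasts, and type IV chains also by endothelial and mural cells. Collagen chains are hydroxylated and folded in the endoplasmic reticulum, trimmed outside the cell, cross-linked by lysyl oxidases and broken down by metalloproteinases and cathepsins.

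The values are log2 intensities as deposited, so a difference of 1 is a doubling, and 12 arrays limit the precision of every comparison below. Array medians were 6.03 to 6.04 at 24 h and 6.35 to 6.36 at 48 h. Each array was correlated with the probe-wise median of the other arrays of its time. DMA 24 h replicate 3 stood apart at 0.742, against 0.927 to 0.963 for the other 11 arrays. It was the highest or lowest of the 6 arrays of its time for 20875 of 29434 probes, and by that count DMA 48 h replicate 3 came next, with 16694 of 30095. Several class medians and single gene differences are therefore also given without them. Since same-numbered DMSO and DMA arrays of a time deviated together, some are also given with both arrays of pair 3 left out and the replicate number as a block. Missing values included very bright transcripts. Of 12 cardiomyocyte markers 4 were tested (Myh6, Myh7, Ryr2 and Nppb), while Tnni3, Pln and Myl2 had a value on DMA 24 h replicate 3 alone, from 13.44 to 13.73, and Actc1 and Atp2a2 had none.

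The collagens were spread over the array's range of levels. On every array where they had a value, 18 of the 41 genes lay above the array median, or 43.9%, against 39.8% of the 18069 genes represented by their brightest probe. Only 4 genes lay below the median on every such array (9.76%, against 21.8% of all genes): Col2a1, Col10a1, Col11a2 and Col24a1. No collagen value was at the lowest value of its array, and 32 genes had a value on all 12 arrays. By class, the genes above the median on every array were 5 of 11 fibrillar chains (Col3a1, Col5a1, Col5a2, Col5a3 and Col27a1), 4 of 8 basement membrane chains (Col4a1, Col4a4, Col15a1 and Col18a1), 5 of 7 fibril associated chains (Col9a1, Col9a3, Col14a1, Col20a1 and Col22a1), 2 of 6 beaded filament chains (Col6a2 and Col6a4), none of the short chain network chains, 1 transmembrane chain (Col17a1) and Col26a1. Probes differ in how strongly they bind, so these counts set each probe against its array and rank no chain above another.

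The promoters of 3 fibril chains are shown because results below turn on their genes: Col1a2 and Col5a1 had the smallest unadjusted p among positive differences between the vehicle times, and the 24 h difference of Col3a1 rested on 1 array. The sequences are the 250 bases before the annotated start in RefSeq, build GRCm38.p6, 5′ to 3′ on the gene's strand, with capitals marking matches on either strand to CCAAT, to the GC box GGGCGG or to TATAAA. The Col1a2 window lies at chr6:4505368-4505617, that of Col3a1 at chr1:45311288-45311537 and that of Col5a1 at chr2:27886175-27886424, all on the plus strand.
Col1a2: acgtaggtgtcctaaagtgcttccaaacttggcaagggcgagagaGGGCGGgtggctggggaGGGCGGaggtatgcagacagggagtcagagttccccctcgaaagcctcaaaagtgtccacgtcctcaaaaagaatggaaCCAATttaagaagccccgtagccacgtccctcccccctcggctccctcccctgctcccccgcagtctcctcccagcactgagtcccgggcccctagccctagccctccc
Col3a1: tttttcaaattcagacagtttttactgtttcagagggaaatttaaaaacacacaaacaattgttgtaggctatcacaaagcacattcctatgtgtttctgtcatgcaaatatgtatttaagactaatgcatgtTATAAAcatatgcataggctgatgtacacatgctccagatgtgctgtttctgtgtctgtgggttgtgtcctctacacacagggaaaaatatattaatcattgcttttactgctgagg
Col5a1: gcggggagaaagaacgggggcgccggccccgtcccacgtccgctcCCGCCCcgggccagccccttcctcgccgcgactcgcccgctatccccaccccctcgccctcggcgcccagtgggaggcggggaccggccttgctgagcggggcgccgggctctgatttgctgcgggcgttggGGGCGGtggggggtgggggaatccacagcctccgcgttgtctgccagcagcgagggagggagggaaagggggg

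The 3 windows differ in base composition and in their motifs. That of Col1a2 is 62.0% G or C and holds 2 GC boxes and 1 CCAAT, that of Col5a1 is 76.4% G or C with 2 GC boxes, and that of Col3a1 is 35.2% G or C with a TATAAA match. The table held windows for 33 of the 41 genes, 36 in all, and none for Col1a1, Col2a1, Col4a3, Col5a2, Col9a3, Col14a1, Col22a1 and Col26a1. A GC box stood in 21 of them (58.3%, against 32.7% of the 32851 windows in the table), CCAAT in 13 (36.1%, against 33.8%) and TATAAA in 5 (13.9%, against 12.4%). Col4a1 and Col4a2, which code for the chains that combine in the main type IV trimer, start head to head in the RefSeq annotation, where their first 22 bases overlap. Col4a5 and Col4a6 are also divergent, with 1344 bases from one start to the other, both starts counted.

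**Figure D1:**
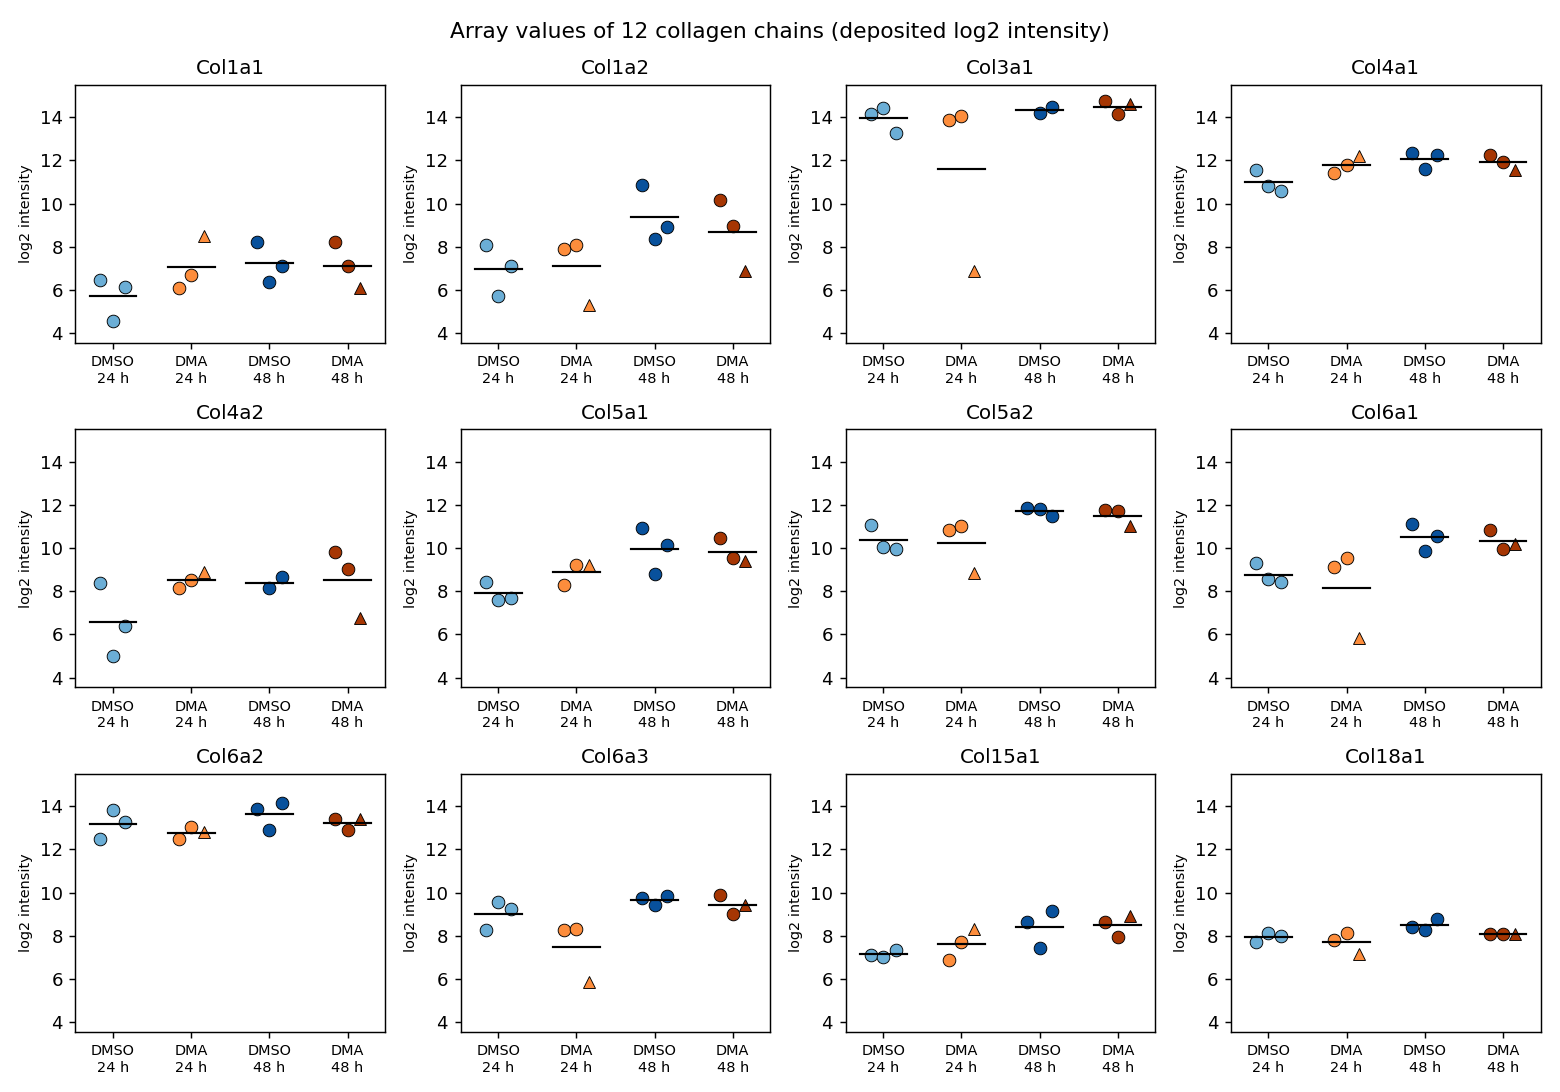
Deposited log2 intensity of 12 chains of heart matrix collagens on each array, with 3 arrays per group (points, replicates 1 to 3 from left to right) and the group mean (line). Triangles mark DMA 24 h replicate 3 and DMA 48 h replicate 3; the lowest point of Col3a1, at 6.87, is DMA 24 h replicate 3, and the 48 h arrays of Col3a1 show 5 points because DMSO 48 h replicate 1 has no value.

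DMA was first compared with DMSO 24 h after dosing. No collagen gene passed limma's test at an adjusted p of 0.05 (Benjamini-Hochberg over 35401 probes), and neither did any probe of the array (0.0%): adjusted p ran from 0.871 to 0.995 over the 40 genes. At an unadjusted p under 0.05 there were 3 collagen genes (Col19a1, Col6a3 and Col6a4) and 1071 probes in all (3.03%). The median difference of the 40 genes, DMA minus DMSO, was 0.03, with 20 positive, beside 0.09 and 55.8% positive over all probes.

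Type IV chains Col4a1 and Col4a2 had the smallest unadjusted p among positive differences together with Col6a4. Col4a1 read 11.57, 10.80 and 10.58 in DMSO and 11.40, 11.77 and 12.22 in DMA, and Col4a2 read 8.37, 5.0 and 6.38 in DMSO and 8.14, 8.50 and 8.87 in DMA. In both genes DMSO replicate 1 was the highest of the vehicle arrays and lay within the DMA range, so the groups overlapped. The difference was 0.81 (SE 0.394, n = 3 per group) for Col4a1 and 1.92 (SE 0.897) for Col4a2, and the latter was 1.13 without DMSO 24 h replicate 2. The basement membrane class as a whole had a median difference of 0.51 with 5 of 8 positive, and of 0.59 with 7 of 8 without DMA 24 h replicate 3. Within same-numbered pairs, 4 of 8 were positive in pair 1 (median -0.07), 7 of 8 in pair 2 (1.21) and 5 of 8 in pair 3 (0.42). Col4a6, a minor type IV chain, read 3.65, 5.03 and 5.40 in DMSO and 5.42, 6.76 and 6.0 in DMA. Every DMA array lay above every DMSO array, and the difference was 1.37 (SE 0.865). This probe lay above the array median on 3 of the 11 arrays where it had a value. Col15a1 and Col18a1, the basement membrane zone collagens whose C-terminal fragments are endostatins, differed by 0.48 (SE 0.506) and -0.25 (SE 0.338), or by 0.15 and 0.02 without DMA 24 h replicate 3.

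Fibrillar chains split evenly, 5 of 10 positive, with a median difference of 0.01. The major type III chain, Col3a1, read 14.14, 14.42 and 13.28 in DMSO and 13.89, 14.07 and 6.87 in DMA. Its difference of -2.34 (SE 1.53) thus rested on 1 array, and was 0.03 without DMA 24 h replicate 3. DMA read lower in each same-numbered pair, by differences of -0.25, -0.35 and -6.42, and the paired difference without pair 3 was -0.30. The type I chain Col1a1 read 6.47, 4.55 and 6.13 in DMSO and 6.10, 6.67 and 8.48 in DMA, a difference of 1.36 (SE 0.785) that was 0.67 without that array. Its partner Col1a2 read 8.10, 5.73 and 7.11 in DMSO and 7.91, 8.08 and 5.31 in DMA, a difference of 0.12 (SE 1.03) that was 1.02 without that array. On DMA 24 h replicate 3 the chains of one type I molecule thus lay on opposite sides, Col1a1 at the top of the 6 arrays and Col1a2 at the bottom. The type V chain Col5a1 read 8.45, 7.59 and 7.70 in DMSO and 8.31, 9.22 and 9.20 in DMA, a difference of 1.00 (SE 0.555), whereas Col5a2 differed by -0.11 (SE 0.565), and by 0.59 without DMA 24 h replicate 3. Without that array the class had 7 of 10 positive differences and a median of 0.54, and without both arrays of pair 3 it had 6 of 10 and 0.31.

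Type VI chains lay mostly on the negative side, 4 of 6, with a median of -0.50, or -0.01 and 3 of 6 without DMA 24 h replicate 3. Col6a3 read 8.27, 9.55 and 9.23 in DMSO and 8.28, 8.31 and 5.88 in DMA, a difference of -1.53 (SE 0.618) that was -0.72 without that array. Col6a5 read 8.19, 8.13 and 7.82 in DMSO and 7.48, 7.28 and 4.39 in DMA, with no overlap, and differed by -1.67 (SE 0.775), or -0.67 without it. Col6a4, a type VI chain, had no value on DMSO replicate 1 and DMA replicate 2; it read 6.19 and 7.11 in DMSO and 7.38 and 9.09 in DMA, so the groups did not overlap, and the difference over these 4 arrays was 1.59 (SE 0.679), and it ran from 0.73 (DMA 24 h replicate 3 left out) to 2.44 (DMA 24 h replicate 1 left out). In each of these 3 chains DMA replicate 3 was the lowest or highest of the arrays measured. The core chains Col6a1 and Col6a2 differed by -0.59 (SE 0.812) and -0.42 (SE 0.444), and Col6a1 by 0.58 without that array.

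Among the remaining classes, Col19a1, a fibril associated chain of basement membrane zones, had the smallest unadjusted p of all 40 genes. Its probe was dim, with a mean of 4.66 over all arrays and a value above the array median on 1 of 12 arrays. It read 6.08, 5.45 and 4.09 in DMSO and 3.23, 4.42 and 2.83 in DMA, a difference of -1.71 (SE 0.554) with DMSO replicate 3 inside the DMA range, and it ran from -2.27 to -1.27 as each 24 h array was left out. The fibril associated class had a median of 0.16 with 4 of 7 positive, which turned to -0.12 with 3 of 7 without DMA 24 h replicate 3. The short chain network chains had a median of -0.50, the transmembrane chains of 0.32 and the other 2 genes of -0.46, or -0.28, 0.12 and -0.98 without that array. Counted over all 40 genes, DMA lay wholly above DMSO in 2 (Col4a6 and Col6a4; background 4.51% of probes) and wholly below in 1 (Col6a5; background 3.48%, and 7.99% in either direction). Without DMA 24 h replicate 3 these counts were 3 and 4, where the background was 8.63% and 9.58%.

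The array that stood apart weighed on this family as on the rest of the array. DMA 24 h replicate 3 was the highest of the 6 arrays of its time for 14 and the lowest for 15 of the 39 collagen genes with all 6 values, against 44.1% and 26.8% of all probes. There, 26 of the 40 genes (65.0%) lay more than 1 from the DMSO mean, against 53.9% of all probes. Same-numbered arrays were close in the other pairs: the median absolute difference of the collagen genes between DMA and DMSO was 0.19 in pair 1 and 0.53 in pair 2, against 1.56 in pair 3, and over all probes 0.21, 0.45 and 1.06.

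**Figure D2:**
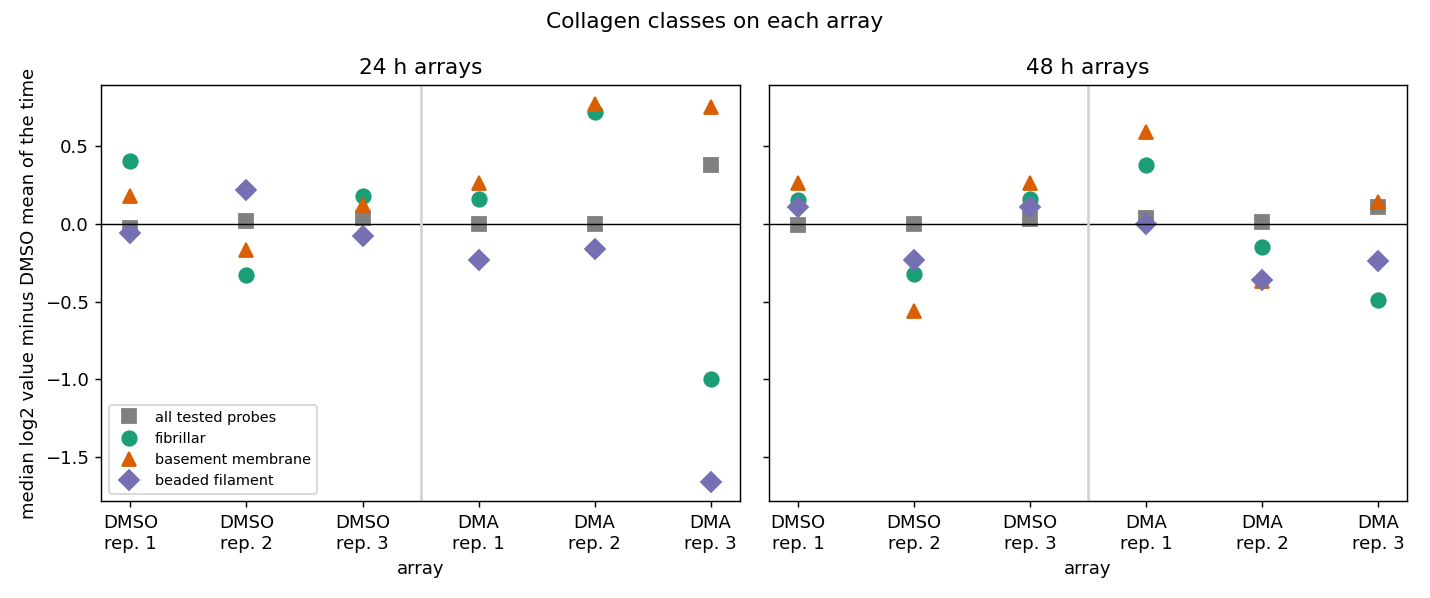
Median over the genes of 3 collagen classes, and over all tested probes, of each array's log2 value minus the DMSO mean of its time; DMSO arrays are left and DMA arrays right of the grey line. On DMA 24 h replicate 3 the fibrillar and type VI medians are -1.0 and -1.66 while the basement membrane median is 0.75 and that of all probes 0.38; the other arrays lie between -0.56 and 0.77.

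DMA was then compared with DMSO at 48 h. No collagen gene passed limma's test (adjusted p = 1.0 for all 40; 0.0% of probes called), none had an unadjusted p under 0.05, beside 494 probes in all (1.40%), and the differences ran from -0.70 to 0.52, beside -2.34 to 1.92 at 24 h. The median was -0.11 with 17 of 40 positive, beside 0.01 and 51.6% over all probes, and -0.03 with 20 of 40 without DMA 48 h replicate 3.

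Of the fibrillar chains 8 of 10 were negative, with a median of -0.19. Without DMA 48 h replicate 3 alone, which keeps its DMSO partner, 3 were negative and the median was 0.07. Without both arrays of pair 3 the median was -0.05 with 4 of 10 positive, and within pairs 1 and 2 negative differences stood in 6 of 9 and 6 of 10 chains. Col1a2 read 10.86, 8.35 and 8.91 in DMSO and 10.18, 8.96 and 6.88 in DMA, a difference of -0.70 (SE 1.03) that was 0.20 without DMA replicate 3 and -0.03 without pair 3. Col1a1 read 8.23, 6.39 and 7.09 in DMSO and 8.21, 7.10 and 6.08 in DMA and differed by -0.11 (SE 0.785), or 0.42 without that array and 0.34 without the pair. In both type I chains replicate 1 was the highest array of its group, in DMSO and in DMA alike. Col3a1 had no value on DMSO replicate 1 and read 14.19 and 14.49 in DMSO and 14.76, 14.13 and 14.61 in DMA. These lay near the highest values of the 48 h arrays, which were 14.56 to 14.91. Whether differences are compressed at that level was not tested. The Col3a1 difference was 0.15 (SE 1.71), an error that carries the spread of the 24 h arrays because the 4 groups share one estimate. Col5a1 differed by -0.16 (SE 0.555) and Col5a2 by -0.23 (SE 0.565); for Col5a2 DMA read lower in each pair, by differences of -0.12, -0.11 and -0.47.

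Basement membrane chains had 5 of 8 positive differences with a median of 0.11, and this count depended on a vehicle array: without DMSO 48 h replicate 2 none of the 8 was positive and the median was -0.40. Col18a1 had the smallest unadjusted p among the negative differences. It read 8.39, 8.27 and 8.77 in DMSO and 8.09, 8.08 and 8.06 in DMA, so every DMA array lay below every DMSO array, and the difference was -0.40 (SE 0.338). Col4a3, found mainly in kidney and lung basement membranes, read 6.42, 5.08 and 6.15 in DMSO and 6.90 and 5.54 in DMA, where replicate 3 had no value; the difference was 0.33 (SE 0.603). Col4a1 and Col4a2, the head to head pair, differed by -0.16 (SE 0.394) and 0.13 (SE 1.00), and Col15a1 by 0.08 (SE 0.506). Vehicle and DMA arrays overlapped in all of these but Col18a1.

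Type VI chains had 3 positive differences of 6 and a median of -0.01, or 2 and -0.15 without DMA 48 h replicate 3. Col6a2 had one of the 3 smallest unadjusted p on the negative side: it read 13.88, 12.90 and 14.13 in DMSO and 13.42, 12.90 and 13.41 in DMA, a difference of -0.39 (SE 0.444). Col6a1 differed by -0.19 (SE 0.812) and Col6a3 by -0.25 (SE 0.618). Among the transmembrane collagens, Col25a1, a neuronal collagen, read 6.22, 6.25 and 5.27 in DMSO and 6.43, 6.90 and 5.96 in DMA, and Col13a1, a collagen of cell-matrix contacts, read 6.16, 6.37 and 6.59 in DMSO and 5.97, 6.51 and 5.57 in DMA. Both pairs of groups overlapped, with differences of 0.52 (SE 0.475) and -0.36 (SE 0.340). Col26a1 differed by 0.24 (SE 0.366). Over the 40 genes, DMA lay wholly above DMSO in 1 (Col9a1, by 0.32 over 5 arrays; background 4.42%) and wholly below in 2 (Col18a1 and Col20a1, by -0.40 and -0.28; background 2.79%, and 7.22% in either direction), and without DMA 48 h replicate 3 in 3 and 2, where the background was 8.46% and 7.63%.

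Whether the effect of DMA differed between the times was tested as the difference of the differences. No collagen gene passed (adjusted p = 0.999 in limma for all 40; 0.0% of probes called). At an unadjusted p under 0.05 there was 1 collagen gene, Col19a1, named here after its value was seen, and there were 695 probes in all (1.96%). The median of the 40 genes was -0.17, with 17 positive, beside -0.05 and 47.3% positive over all probes. The 2 comparisons with vehicle share no arrays. The comparison of the vehicle times below reuses the DMSO arrays of both. A low vehicle group at 24 h therefore raises the DMA difference at 24 h and the vehicle difference alike. A low vehicle group at 48 h raises the DMA difference at 48 h and lowers the vehicle difference. Such results are not separate evidence.

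**Figure D3:**
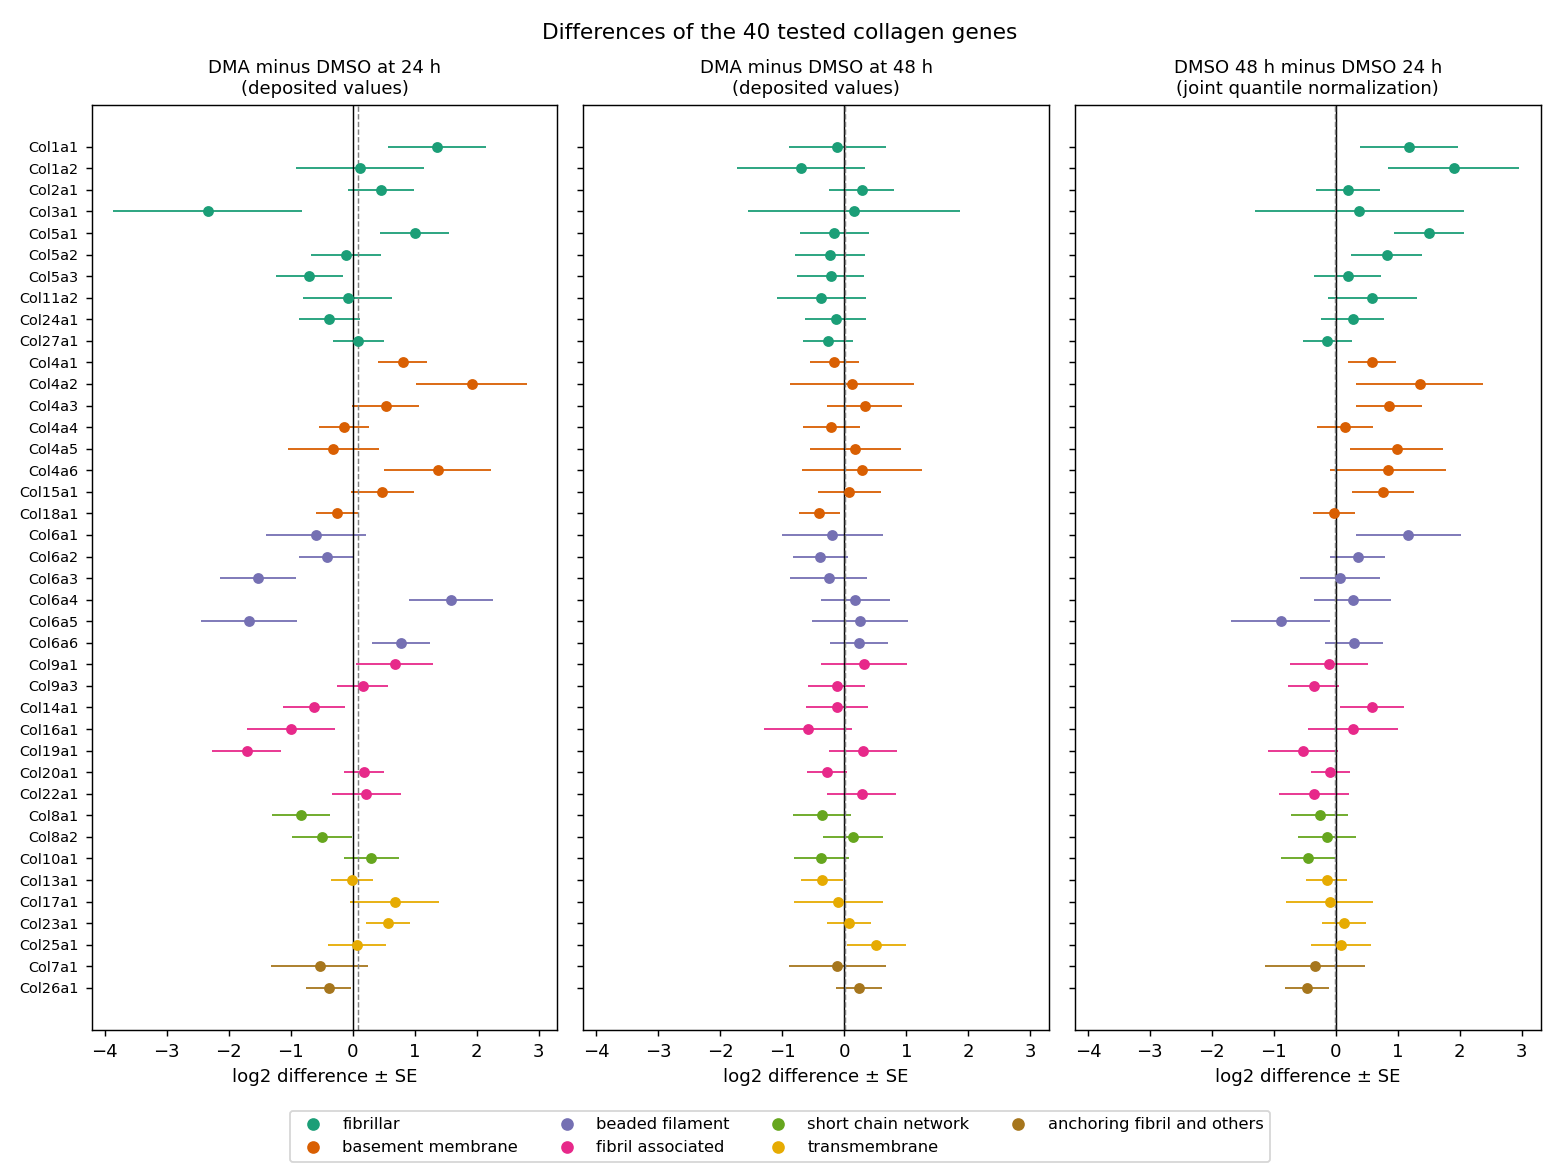
Log2 difference (points) with its standard error from limma (bars) for the 40 tested collagen genes, coloured by class, in the 3 comparisons of groups; the dashed grey line is the median of all tested probes. Differences run from -2.34 to 1.92 at 24 h, from -0.70 to 0.52 at 48 h and from -0.89 to 1.90 between the vehicle times, and none passed an adjusted p of 0.05.

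Vehicle hearts at 48 h were compared with those at 24 h. The array medians of the deposited values differed between the times, and the median difference of all probes was 0.33 on the deposited values and -0.02 after all 12 arrays were brought to 1 distribution by joint quantile normalization. Unless they are called deposited, the values given for the vehicle times from here on are on the jointly normalized log2 scale, those of marker and pathway genes included. No collagen gene passed limma's test (adjusted p = 1.0 for all 40; 0.0% of probes called); at an unadjusted p under 0.05 there was 1, Col5a1, and 948 probes in all (2.68%). The standard errors between the vehicle times carry the spread of all 4 groups, DMA arrays included. Without DMA 24 h replicate 3, 1810 probes had an unadjusted limma p under 0.05. Without that array and DMA 48 h replicate 3 there were 2034, and no probe passed the adjusted threshold in either fit. The median difference of the 40 genes was 0.19 with 25 positive, beside -0.02 and 47.6% positive over all probes. Over the 17611 tested genes, each by its brightest probe, the median was 0.02 with 51.7% positive. By median centring the 40 genes had a median of 0.19 with 30 positive.

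Chains of fibrils and basement membranes read higher at 48 h in most cases. Positive differences were found in 9 of 10 fibrillar chains (class median 0.48) and in 7 of 8 basement membrane chains (class median 0.80); by median centring these were 10 of 10 with 0.41 and 8 of 8 with 0.75. As each vehicle array was left out in turn, the fibrillar count stayed between 8 and 10 and the basement membrane count between 5 and 8. Without DMSO 48 h replicate 3 the basement membrane median was 0.46, and without DMSO 48 h replicate 2 it was 1.23. Type VI chains were positive in 5 of 6, with a median of 0.28 (0.09 without DMSO 48 h replicate 3). In the other classes 2 of 7 fibril associated chains were positive with a median of -0.11, none of 3 short chain network chains (-0.26), 2 of 4 transmembrane chains (-0.01) and none of the other 2 genes (-0.40). These counts depended on the scaling: by median centring 4 of 7 fibril associated (0.01) and 3 of 4 transmembrane chains (0.09) were positive, and on the deposited values 6 of 7 (0.33) and 4 of 4 (0.41). Differences between classes were not tested.

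Col5a1, a chain of the collagen that nucleates type I fibrils, read 8.76, 7.85 and 7.96 at 24 h and 10.70, 8.53 and 9.83 at 48 h. Its difference was 1.5 (SE 0.560), or 0.99 without DMSO 48 h replicate 1, and 24 h replicate 1 lay above 48 h replicate 2. Col1a2 read 8.39, 5.87 and 7.33 at 24 h and 10.60, 8.08 and 8.62 at 48 h, a difference of 1.90 (SE 1.06), or 1.15 without DMSO 48 h replicate 1, with the same overlap of 24 h replicate 1 and 48 h replicate 2. Col1a1 differed by 1.18 (SE 0.795), Col5a2 by 0.82 (SE 0.573) and Col3a1, over 5 arrays, by 0.38 (SE 1.68). That of Col1a1 was 0.55 without DMSO 24 h replicate 2, and that of Col3a1 was 0.03 without DMSO 24 h replicate 3. In Col1a1, Col1a2, Col5a1 and Col5a2 the 24 h array with the highest value was replicate 1, and the 48 h array with the lowest value was replicate 2 for Col1a1, Col1a2 and Col5a1.

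In the basement membrane class, Col4a3 read 5.47, 4.35 and 4.89 at 24 h and 6.26, 5.01 and 6.0 at 48 h, with a difference of 0.86 (SE 0.537). Col4a1 differed by 0.58 (SE 0.387), Col4a2 by 1.35 (SE 1.02, 5 arrays), Col15a1 by 0.76 (SE 0.498) and Col18a1 by -0.03 (SE 0.340). Col4a2 differed by 0.50 without DMSO 24 h replicate 2, Col4a1 by 0.37 without DMSO 24 h replicate 3 and Col15a1 by 0.41 without DMSO 48 h replicate 3. Among type VI chains, Col6a1 read 9.62, 8.86 and 8.74 at 24 h and 10.87, 9.56 and 10.29 at 48 h, again with 24 h replicate 1 above 48 h replicate 2, and differed by 1.17 (SE 0.851). Col6a2 and Col6a3 differed by 0.35 (SE 0.449) and 0.06 (SE 0.645), and Col6a2 by 0.08 without DMSO 48 h replicate 3.

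On the negative side Col26a1, Col6a5 and Col10a1 had the smallest unadjusted p. Col10a1, the collagen of hypertrophic cartilage, read 4.47, 4.51 and 4.79 at 24 h and 4.45, 3.79 and 4.17 at 48 h; all 48 h arrays lay below all 24 h arrays, and the difference was -0.45 (SE 0.435). Col6a5 differed by -0.89 (SE 0.803), or -0.59 without DMSO 48 h replicate 1, and Col26a1 by -0.47 (SE 0.357), or -0.30 without DMSO 24 h replicate 1. Col10a1 was the only one of the 40 genes without overlap downwards (background 6.33%), and none was without overlap upwards (background 5.69%). On the deposited values, by contrast, 12 of the 40 genes lay wholly higher at 48 h and none wholly lower, where the background was 26.1% and 2.48%, and the median was 0.51 with 35 positive, beside 74.1% of all probes.

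**Figure D4:**
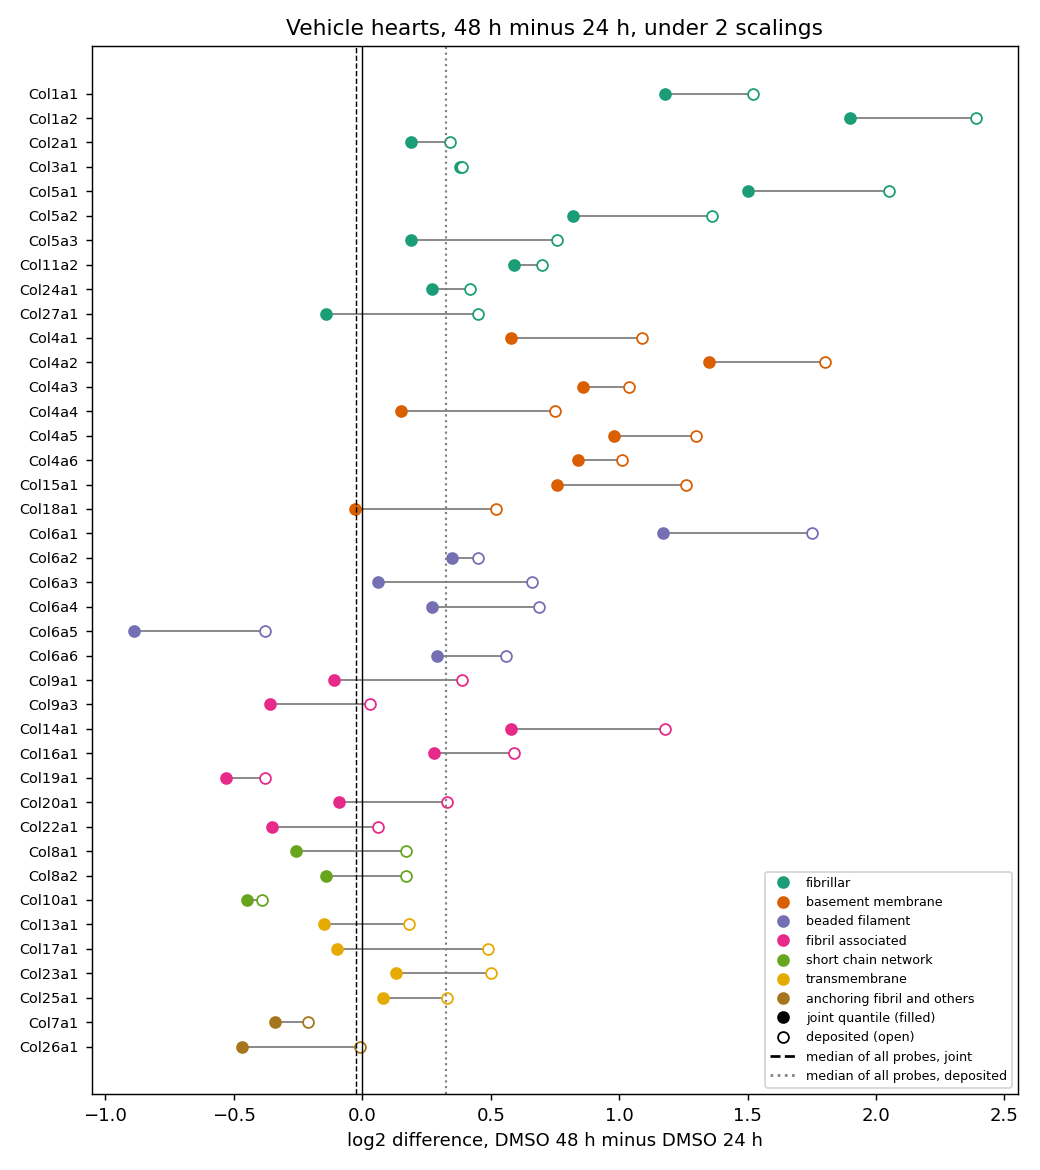
Log2 difference between vehicle hearts at 48 h and 24 h (3 arrays each) for the 40 tested collagen genes after joint quantile normalization (filled) and on the deposited values (open); vertical lines mark the median of all tested probes under each scaling. The median of the 40 genes is 0.19 filled and 0.51 open, against -0.02 and 0.33 for all probes.

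Markers of the cells that make these chains were read on the same arrays. Of 17 tested fibroblast markers 10 were positive between the vehicle times, with a median of 0.02. The array means over the 9 markers with 12 values were 9.29 to 9.34 at 24 h and 9.25 to 9.41 at 48 h. Those means leave out Dcn, Lum, Pcolce, Mfap5, Fbln1, Vim, Postn and Lox, which lacked a value on an array but are among the 17 counted. On the deposited values Lum, Pcolce, Mfap5, Fbln1, Postn and Lox lay wholly higher at 48 h in vehicle (background 26.1% of probes), while Dcn and Vim overlapped. The deposited means of the 9 markers were also higher at 48 h, at 9.48 to 9.62 against 9.03 to 9.08. The difference of Lum is given below with the pathway genes. Endothelial markers were positive in 9 of 11, with a median of 0.63, and the array means of 7 markers were 8.65 to 10.34 at 24 h and 9.80 to 10.53 at 48 h. Smooth muscle and pericyte markers were positive in 6 of 11 with a median of 0.27, and adipocyte markers in none of 4 (-0.54). For DMA at 24 h, 9 of 17 fibroblast markers were positive (median 0.11) and 5 of 11 endothelial markers (-0.10), or 9 of 11 endothelial markers (0.78) without DMA 24 h replicate 3. For DMA at 48 h none of 11 endothelial markers was positive (-0.37), and 3 were (-0.12) without DMA 48 h replicate 3. No marker of these lists passed limma's adjusted threshold, and their part in the collagen values was not tested. In whole hearts, fewer cells of a type and less RNA per cell cannot be told apart.

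Genes that act on collagens were read from 6 lists with 110 genes in all, and none passed limma's test in any comparison. Of 32 tested genes of collagen synthesis and processing, 16 were positive for DMA at 24 h (median 0.10), 13 at 48 h (-0.08) and 20 between the vehicle times (0.05). For 14 genes of collagen breakdown the counts were 9, 7 and 7 (medians 0.23, -0.06 and 0.06), and for 9 receptors 3, 3 and 3 (-0.15, -0.45 and -0.05). Of 15 fibril associated matrix proteins 5, 6 and 11 were positive (-0.12, -0.09 and 0.40), of 9 basement membrane partners 4, 8 and 7 (-0.45, 0.13 and 0.28), and of 16 genes of fibrogenic signalling 8, 6 and 10 (0.02, -0.13 and 0.30). Without DMA 24 h replicate 3 the 24 h counts were 10 of 15 for the matrix proteins (median 0.72) and 7 of 9 for the basement membrane partners (0.26). Without DMA 48 h replicate 3 the 48 h counts of these lists were 10 of 15 (0.14) and 4 of 9 (-0.04).

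The pathway genes of smallest unadjusted p at 24 h were Pdgfb, a ligand that recruits pericytes, Mmp2, a gelatinase, Mrc2, an endocytic collagen receptor, and Mia3, which loads procollagen for export. Pdgfb read 9.18, 6.97 and 7.22 in DMSO and 8.97, 9.14 and 8.67 in DMA, with DMSO replicate 1 above all DMA arrays, and differed by 1.14 (SE 0.509), or 0.73 without DMSO 24 h replicate 2. Mmp2 differed by 0.91 (SE 0.453) and Mia3 by -2.01 (SE 1.02), or by 0.47 and -0.37 without DMA 24 h replicate 3. Mrc2 read 4.30, 3.94 and 4.70 in DMSO and 0.86, 3.73 and 3.67 in DMA, without overlap, and its difference of -1.56 (SE 0.730) was -0.61 without DMA 24 h replicate 1. All of these Mrc2 values lay below the median of their array. At 48 h they were P4ha3, a prolyl hydroxylase subunit, at 1.58 (SE 0.609), Mmp16, a membrane metalloproteinase, at 1.26 (SE 0.793; -0.26 without DMSO 48 h replicate 3), the platelet collagen receptor Gp6 at -0.53 (SE 0.361) and Crtap, a prolyl 3-hydroxylation cofactor, at -0.52 (SE 0.371). P4ha3 read 3.12, 4.48 and 1.69 in DMSO and 5.23, 4.55 and 4.23 in DMA, with DMSO replicate 2 inside the DMA range, and its difference was 0.87 without DMSO 48 h replicate 3. The P4ha3 probe was dim as well, with each of these values below the median of its array.

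Between the vehicle times the list gave Lum, Pdgfb, P4ha3 and Itga1, a collagen-binding integrin chain. Lum codes for lumican, a proteoglycan that coats collagen fibrils, and its difference was 2.17 (SE 0.712) over 5 arrays; on the deposited values it read 8.14 and 8.61 at 24 h and 11.69, 11.05 and 10.56 at 48 h. Its groups did not overlap on either scaling, and the difference ran from 1.85 to 2.46 as vehicle arrays were left out. Pdgfb differed by 1.39 (SE 0.524), P4ha3 by -1.50 (SE 0.617) and Itga1 by -0.80 (SE 0.486). As vehicle arrays were left out these ran from 0.96 to 2.11 for Pdgfb, from -2.20 to -0.78 for P4ha3 and from -1.06 to -0.53 for Itga1. In limma each of these 4 genes had an adjusted p of 1.0.

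A second probe, dimmer than the first, offered a limited check within the array for 12 genes. Its mean level over all arrays was 5.43 against 9.15 for Col5a1, 3.83 against 4.66 for Col19a1 and 4.6 against 13.21 for Col6a2. It was 4.83 against 7.5 for Col6a5 and 7.08 against 7.43 for Col6a4. Among these only that of Col6a4 lay above the array medians of 6.03 to 6.36. Those of Col27a1 (7.16) and Col23a1 (6.64) did so too. Where the second probe is dim, a difference in sign does not decide between the probes. The brighter second probes of Col6a4, Col23a1 and Col27a1 kept the sign at 24 h. Between the vehicle times they did not, at -0.24, -0.25 and 0.05 against 0.27, 0.13 and -0.14, all smaller than their standard errors. The sign of the difference was the same for both probes in 6 of 12 genes at 24 h, in 7 of 12 at 48 h and in 6 of 12 between the vehicle times. Col5a1, at 1.5 between the vehicle times by its brighter probe, differed by 0.22 (SE 0.395) by the other, and at 24 h by -0.31 (SE 0.402) where the brighter gave 1.00. Col19a1 kept its sign at 24 h, at -0.47 (SE 0.578) by the second probe, and so did Col6a4 at 0.33 (SE 0.465), whereas Col6a5 gave 0.05 (SE 0.360). Col6a2 differed by -0.71 (SE 0.828) at 24 h and by 0.32 (SE 0.828) at 48 h by its second probe. None of these differences passed limma's adjusted threshold.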

How the data were processed

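The authors deposited 1 table of log2 intensities for 36227 probes on 12 arrays. The log2 scale was inferred from the range of the values, and background correction and normalization are not given in the sources used here. Genes were named from the platform annotation, in which 21615 probes have 1 symbol, 681 several and 13931 none. Members, gene lists and comparisons were chosen with earlier results of these data known.

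Probes with at least 2 values in each group (35401) entered one linear model with 4 groups and 12 arrays (lmFit and eBayes of limma 3.58.1, R 4.3.3), with Benjamini-Hochberg adjustment over all of them and a threshold of 0.05. A missing value drops that array from that probe's fit. The fit was run on simulated data with 200 changed probes. The simulated noise was independent between arrays and had the same spread on every array for a given probe. It held no array that stands apart and no pairing of replicate numbers, so it does not test the fit under these. Comparisons within a time, and the difference of the DMA effects between the times, used the deposited values. The comparison of the vehicle times used the values after joint quantile normalization of the 12 arrays. The standard errors given are limma's, and a count without overlap compares the lowest value of one group with the highest of the other.

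Given in full are 12 chains of heart matrix collagens, the 3 genes of smallest unadjusted p per direction and comparison, and from 6 lists of pathway genes the 2 per direction and comparison of smallest unadjusted p. Other genes were named after their values were seen.

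Same-numbered arrays of DMSO and DMA deviated together from their group means, with correlations of 0.186, 0.11 and 0.117 at 24 h and 0.329, 0.304 and 0.266 at 48 h over 25002 probes, which pairs the replicate numbers at each time. Between the vehicle times the correlations were 0.113, -0.0938 and 0.00461, and the numbers do not pair them. Alternatives were other scalings, filters, probe choices, array weights, the replicate block, leaving out arrays and, added after seeing the data, leaving out both arrays of pair 3 with the block.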

Additional observations from a re-analysis of the deposited data

How the results depend on the processing

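No collagen gene passed limma's adjusted threshold in any of 23 alternatives at 24 h, 23 at 48 h, 24 for the vehicle times and 22 for the difference of effects, including the fit with the replicate number as a block. With the replicate block the median differences were 0.03, -0.11, 0.19 and -0.13, and the block changed no call. The median of the collagen genes between the vehicle times was 0.51 on the deposited values, and that of the difference of effects ran from -0.28 to 0.02 as each array was left out. Of 47 results on single genes, these changed sign. Without DMA 24 h replicate 3 and DMA 48 h replicate 3 together, the 24 h difference was 0.03 for Col3a1, 0.59 for Col5a2, 0.58 for Col6a1 and 0.02 for Col18a1, and the 48 h difference 0.42 for Col1a1, 0.20 for Col1a2, 0.01 for Col4a1, 0.04 for Col5a1, 0.01 for Col5a2, -0.13 for Col15a1 and -0.08 for Col26a1. With array weights it was 0.64 for Col5a2 and 0.55 for Col6a1 at 24 h, 0.16 for Col1a1 and -0.08 for Col15a1 at 48 h, and -0.02 for Col6a3 between the vehicle times. Joint quantile normalization gave -0.05 for Col3a1 at 48 h, and the replicate block gave -0.51 for Col4a2 at 48 h, where the pair with a missing value drops out. With the replicate block and both arrays of pair 3 left out, an alternative chosen after seeing the data, the medians at 24 h, at 48 h and of the difference of effects were 0.04, -0.01 and -0.06. Signs then turned at 24 h for Col5a2 (0.39), Col6a1 (0.42) and Col18a1 (0.05), and at 48 h for Col1a1 (0.34), Col3a1 (-0.07), Col4a1 (0.11) and Col5a1 (0.12), but not for Col3a1 at 24 h or Col1a2 and Col5a2 at 48 h, which turned when the DMA array alone was left out. Between the vehicle times Col18a1 differed by 0.52 on the deposited values and by 0.20 by median centring. Leaving out 1 array, the 24 h ranges were -0.50 to 1.02 for Col1a2, -3.57 to 0.03 for Col3a1, -0.51 to 0.59 for Col5a2, -1.29 to 0.58 for Col6a1 and -0.47 to 0.02 for Col18a1. At 48 h they were -0.65 to 0.42 for Col1a1, -1.45 to 0.20 for Col1a2, -0.39 to 0.01 for Col4a1, -0.51 to 1.02 for Col4a2, -0.35 to 1.02 for Col4a3, -0.73 to 0.33 for Col5a1, -0.36 to 0.01 for Col5a2, -0.52 to 0.11 for Col6a1, -0.41 to 0.44 for Col15a1 and -0.08 to 0.47 for Col26a1. Between the vehicle times they were -0.31 to 0.34 for Col6a3 and -0.16 to 0.07 for Col18a1. Apart from the reversals that follow from leaving arrays out, the cause was not tested. Over all 40 genes, 21 kept their sign at 24 h, 15 at 48 h and 25 between the vehicle times whichever array was left out. No difference of effects is given for a single gene.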
